A study of Mus musculus with 21 samples.

Results

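Tumour cells can hold off immune attack through molecules on their surface or in the space around them, and 9 genes that code for such molecules are described here in mouse breast cancer cells: Cd274, Cd80, Cd276, Cd47, Cd200, Pvr, Nectin2, Lgals9 and Nt5e. They were taken by gene symbol, and all 9 were among the 55573 genes of the deposited table. Enough reads for a test were present for 7 of them, while Cd80 and Cd200 were not tested. RNA had been sequenced from 21 libraries of cells derived from E0771GFP, a mammary carcinoma line from C57BL/6 mice carrying GFP, in 7 groups of 3.

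The groups were as follows. The TGF-β1 and vehicle groups came from E0771GFP cells with ZBTB18 overexpression and a doxycycline-inducible TGFBR2. Both had doxycycline (1 mg/mL as labelled), and the TGF-β1 group also had TGF-β1 at 2 ng/mL. The ZBTB18 line carried ZBTB18 overexpression without the receptor construct, and the empty-vector line carried the vector alone. M11GFP (M11) and M12GFP (M12) are derivatives of E0771GFP from spontaneous lung metastases, and they and the parental E0771GFP line were untreated. No time of treatment is given in the labels. Each construct is represented by 1 line, so its effect and other differences between lines cannot be told apart. The vehicle group also differs from the ZBTB18 line by doxycycline as well as by the receptor. Nothing in the labels says that the 3 libraries of a group came from separate cultures, so p-values measure only the spread between these libraries.

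Checkpoint ligands are surface proteins that lower the activity of a T cell, NK cell or macrophage by binding a receptor on it. PD-L1 (Cd274) binds PD-1, CD80 binds CD28 and CTLA-4, CD47 binds SIRPα on macrophages and lowers engulfment, and PVR and nectin-2 bind the inhibitory receptor TIGIT and the activating receptor CD226. CD73 (Nt5e) works differently, as a surface enzyme that makes adenosine from AMP. ZBTB18 is a zinc finger transcription factor known chiefly as a repressor, and TGF-β1 is a cytokine that signals through TGFBR2 to SMAD proteins.

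Library totals ran from 24208569 to 90518872 assigned reads. The construct checks followed the labels: Zbtb18 averaged 112.9 CPM (counts scaled to library size) in the ZBTB18 line and 25.12 CPM in the empty-vector line, and Tgfbr2 averaged 587.9 CPM in the vehicle group and 1.736 CPM in the ZBTB18 line. The receptor groups kept the overexpression, with Zbtb18 at 95.2 CPM in the TGF-β1 group and 82.9 CPM in the vehicle group, and M12 averaged 59.2 CPM against 29.5 CPM in parental. Tgfbr2 was itself lower in the ZBTB18 line than in the empty-vector line, which had 26.6 CPM. Parental replicate 1 stood apart, with 14% of its reads assigned to Gm42418, a share of at most 0.0918% in the other 20. Of epithelial markers, Krt8 averaged 153.6 to 341.7 CPM, whereas Cdh1 averaged at most 0.0935 CPM and Epcam 0.222 to 3.23 CPM in all groups, so most defining markers of a breast epithelial cell were near 0. Cd3e and Cd8a, which mark T cells, were at 0 in every group. The 13 immune markers summed to 22.9 to 75 CPM in M12 libraries, of which Cd68 made 36.87 CPM on average, against 4.37 to 18.7 CPM in libraries of the other groups. Cd68 and Cd14 were higher in M12 than in parental, while the other 2 tested, Itgax (0.140 and 0.146 CPM) and Lyz2 (1.70 and 2.08 CPM), were not called. Of those not tested, Ptprc averaged 0.0099, Adgre1 0.0215, Itgam 0.0853 and Csf1r 0.117 CPM in M12.

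The 6 fibroblast markers summed to 710 to 965 CPM in M11 and 138 to 467 CPM in the remaining groups. Col3a1 alone made 721.4 CPM in M11, whereas Dcn and Lum averaged under 0.05 CPM in all groups. The 5 endothelial markers summed to 3.57 to 4.07 CPM in M11 and 1.59 to 2.67 CPM in M12, against 0.114 to 0.398 CPM in parental. Of the 4 tested, 3 were higher in M11 and 4 in M12, where 20.8% and 24.9% of all tested genes were higher. Pecam1 averaged 3.14 CPM in M11, 0.348 CPM in M12 and 0.123 CPM in parental. Cdh5, Kdr and Tie1 were low, at 0.524, 0.117 and 0.0673 CPM in M11 and 0.448, 0.807 and 0.617 CPM in M12. In parental these 3 had 0.0757, 0.00947 and 0.0189 CPM. Of the 6 lung markers, Scgb1a1 and Nkx2-1 were at 0 in every group, but the list summed to 4.8 to 6.89 CPM in M11 and 5.43 to 8.82 CPM in M12, against 5.88 to 8.6 CPM in parental, nearly all of it Hopx (5.70, 6.55 and 6.96 CPM). The part of these markers in the results below was not tested.

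The 9 genes spanned a wide range of levels. In TPM, which are scaled per gene length and can be compared between genes, the mean over 21 libraries was 65.6 for Pvr, 61.0 for Nt5e, 59.8 for Lgals9 and 54.1 for Cd47. These 4 genes lay above 80.1% to 83.6% of the tested genes. Nectin2 averaged 24.6 TPM and Cd276 10.4 TPM, whereas Cd274 averaged 1.83 TPM, above 25.2% of tested genes. Cd80 averaged 0.0305 TPM, from 46 reads over all libraries, with at least 1 read in 17 of 21. Cd200 had 0 reads in all 21 libraries, which allows a level of up to 0.00295 CPM at 3 counts over all of them (counting error only). In bulk RNA, fewer cells with a transcript and less of it per cell cannot be told apart.

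**Figure D1:**
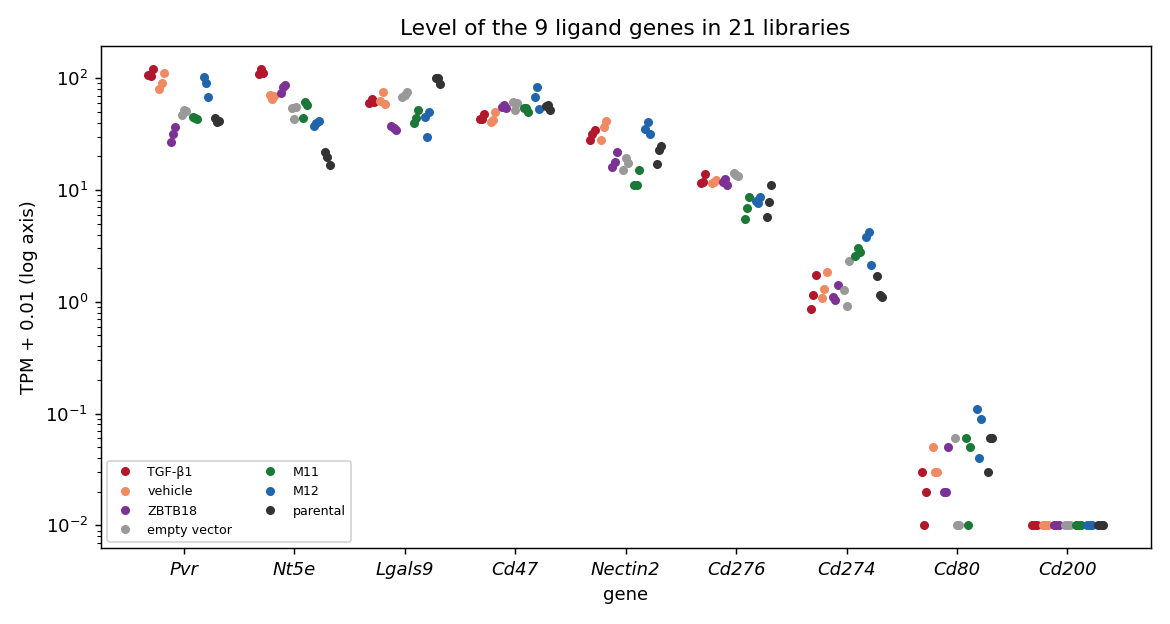
Level of the 9 ligand genes in each of the 21 libraries, as TPM + 0.01 on a log axis, with 1 point per library and colours for the 7 groups. Pvr, Nt5e, Lgals9 and Cd47 average 54.1 to 65.6 TPM, Cd274 averages 1.83 TPM, and Cd200 is at 0 in every library (drawn at the bottom).

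The leading gene of the set differed between groups. Of the 9 genes' summed TPM, Nt5e made the largest share in the TGF-β1 group (30.2% ± 1.85, SD, n = 3), the ZBTB18 line (34.3% ± 1.13) and M11 (24.7% ± 2.73). Pvr led in the vehicle group (29.2% ± 2.80) and in M12 (30.3% ± 3.78). Lgals9 led in the empty-vector line (27.2% ± 1.14) and in the parental line (39.4% ± 1.49). The shares of Nt5e in M11 and Cd47 there (24.2% ± 2.56) lay within their SD, as did Nt5e and Pvr (29.4% ± 1.55) in the TGF-β1 group. In M12 the SD ranges of Pvr and Cd47 (24.1% ± 3.92) overlapped. The summed level was 376.1 ± 15.8 TPM in the TGF-β1 group and 320.9 ± 25.4 TPM in the vehicle group, and between 218.4 TPM (M11) and 283.6 TPM (M12) elsewhere.

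**Figure D2:**
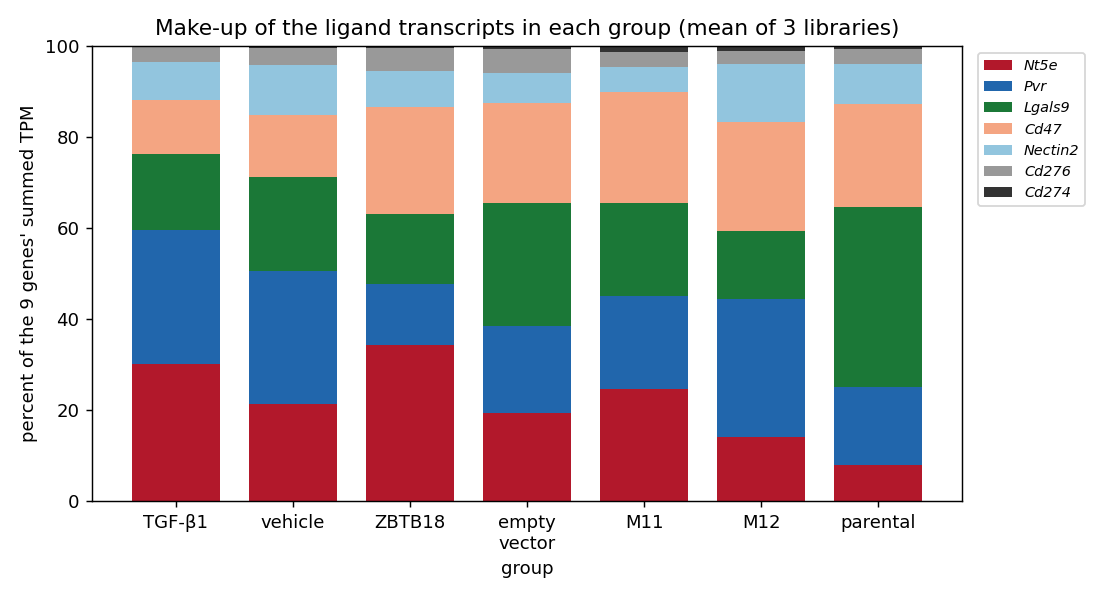
Make-up of the 9 genes' summed TPM in each group, in percent, as the mean of 3 libraries; Cd80 and Cd200 are too low to be seen. Nt5e takes 34.3% in the ZBTB18 line and 7.98% in the parental line, where Lgals9 takes 39.4%.

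Changes were tested with edgeR's quasi-likelihood test over 15432 genes, with Benjamini-Hochberg adjusted p under 0.05 as the threshold. In the ZBTB18 line against the empty-vector line, 1 of 7 tested genes was higher (Nt5e) and 2 were lower (Pvr, Lgals9), where 28.4% of all tested genes were called (14% higher, 14.5% lower). In the TGF-β1 group against the vehicle group, Nt5e alone of 7 was called, and it was higher, where 1.91% of all genes were called (1.26% higher, 0.654% lower). In the vehicle group against the ZBTB18 line, Pvr, Nectin2 and Lgals9 were higher and 0 of 7 lower, where 38.8% of all genes were called (19.5% higher, 19.3% lower).

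Against the parental line the calls were as follows. In M11, Nt5e was higher and Cd276, Nectin2 and Lgals9 were lower, where 40.7% of all genes were called (20.8% higher, 20% lower). In M12, Cd274, Pvr, Nectin2 and Nt5e were higher and Lgals9 was lower, where 50.1% of all genes were called (24.9% higher, 25.2% lower). In the empty-vector line, Cd276 and Nt5e were higher and Nectin2 and Lgals9 were lower, where 58% of all genes were called (28.9% higher, 29% lower). In the ZBTB18 line, Nt5e was higher and Pvr, Nectin2 and Lgals9 were lower, where 61.7% of all genes were called (29.9% higher, 31.8% lower). With the metastatic lines set against each other, Nt5e was higher and Pvr and Nectin2 were lower in M11 than in M12, where 35.5% of all genes were called (17.7% higher, 17.8% lower). All 17 calls against parental held without parental replicate 1, the library that stood apart. The log2 fold changes of Lgals9 were then -1.67 in the ZBTB18 line, -0.66 in the empty-vector line, -1.21 in M11 and -1.37 in M12, and those of Nt5e were 1.88, 1.25, 1.43 and 0.92 in the same order. Pvr was then -0.54 in the ZBTB18 line and 0.95 in M12, and Cd274 1.41 in M12. For Nectin2 the values were -0.60, -0.67, -1.10 and 0.43 in those 4 lines, and for Cd276 0.36 in the empty-vector line and -0.57 in M11.

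Several comparisons share groups: the parental line serves 4 of the 8, and the ZBTB18 line 3. Over the 7 tested genes, the median size of the log2 fold change was 0.84 in M11 against parental, beside 0.31 over all genes. It was 0.72 in M12 against parental, beside 0.37, and 0.35 in M11 against M12, beside 0.28. In the empty-vector line against parental it was 0.45, beside 0.43, and in the ZBTB18 line against parental 0.57, beside 0.49. In the ZBTB18 line against the empty-vector line it was 0.38, beside 0.24, in the vehicle group against the ZBTB18 line 0.35, beside 0.29, and in the TGF-β1 group against the vehicle group 0.16, beside 0.12. Between the highest and the lowest group mean, Nt5e spanned 4.53-fold, Pvr 3.65-fold, Lgals9 3.53-fold, Cd274 3.10-fold, Nectin2 2.88-fold, Cd276 1.86-fold and Cd47 1.72-fold, beside a median of 1.96-fold over the 15213 tested genes with reads in every group.

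**Figure D3:**
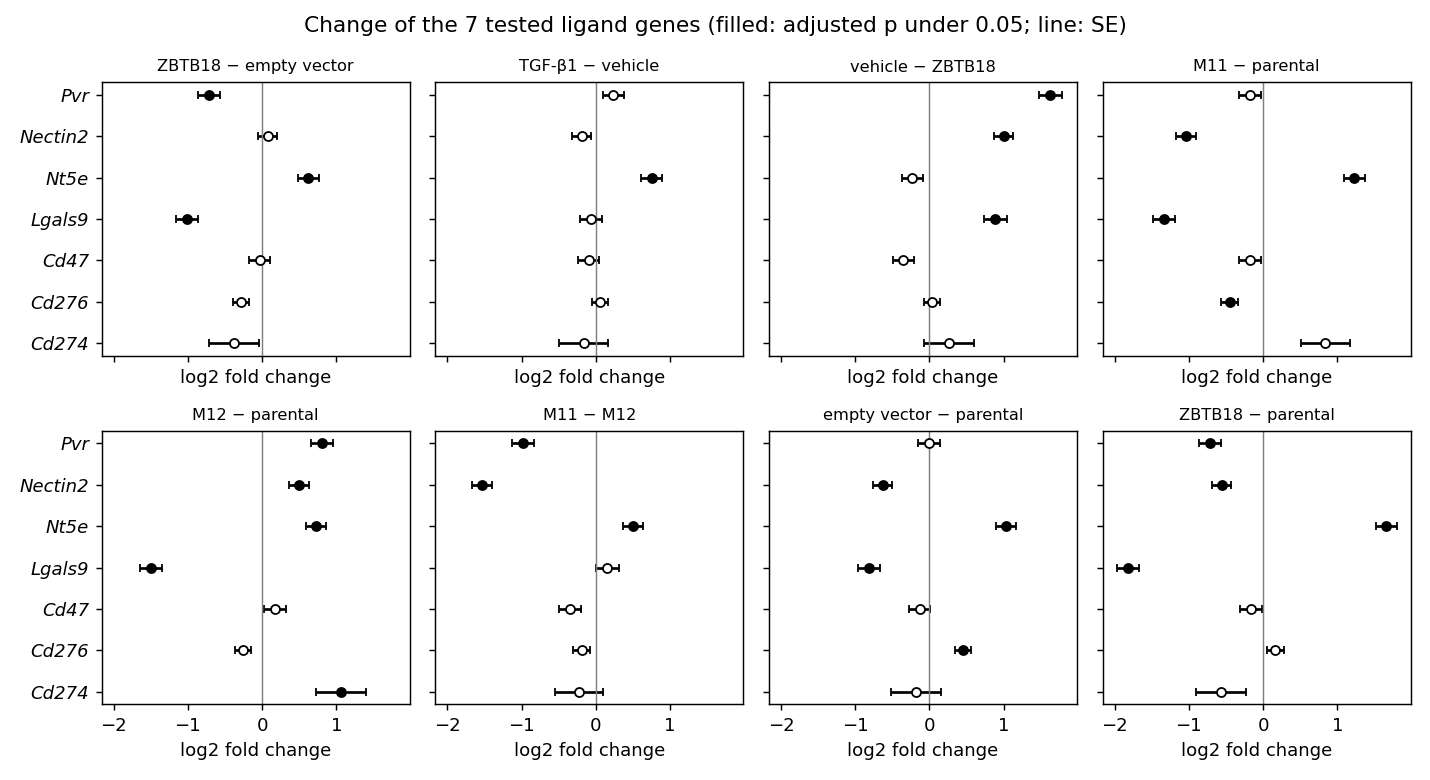
Log2 fold change (first-named minus second-named group) of the 7 tested genes in the 8 comparisons, with SE as lines and filled points where the edgeR adjusted p is under 0.05. Nt5e is the filled point in the TGF-β1 panel, and Nectin2 lies on opposite sides of 0 in M11 and M12 against parental.

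Cd274 (ENSMUSG00000016496.7; mm10 chromosome 19, 29367455 to 29388095, plus strand) codes for PD-L1. Its CPM was 6.92, 7.21 and 8.30 in M11 libraries and 5.41, 10.1 and 10.7 in M12 libraries, against 2.98, 3.56 and 6.03 in parental libraries. All M11 libraries lay above all parental ones, while the lowest M12 library lay below the highest parental one. The other means were 3.02 ± 1.03 CPM in the TGF-β1 group, 3.41 ± 0.926 in the vehicle group, 2.82 ± 0.425 in the ZBTB18 line and 3.70 ± 1.75 in the empty-vector line (SD, n = 3 each), and their libraries overlapped with one another and with the parental ones.

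Cd274 rose 2.09-fold in M12 against parental (log2 fold change 1.06, SE 0.331, edgeR adjusted p = 0.0116). This call was lost without M12 replicate 2 (adjusted p = 0.0556), parental replicate 2 (0.0560) or parental replicate 3 (0.0573). In M11 the log2 fold change was 0.84 (SE 0.333) with an edgeR adjusted p of 0.0510, and it passed without parental replicate 1 (1.19, adjusted p = 0.0132), with DESeq2 (0.0236) and on the TPM scale (limma, 0.00879 with a pseudocount of 1). Between M11 and M12 it was -0.22 (SE 0.323, edgeR adjusted p = 0.632). With ZBTB18 it was -0.38 (SE 0.337, edgeR adjusted p = 0.445) against the empty vector, and with TGF-β1 it was -0.16 (SE 0.333, edgeR adjusted p = 0.931). The empty-vector libraries had 2.27, 3.16 and 5.65 CPM. In the ZBTB18 line against parental the log2 fold change of Cd274 was -0.57 (SE 0.338, edgeR adjusted p = 0.153). It passed without a filter on low counts (-0.58, edgeR adjusted p = 0.00912). The immune markers Cd68 and Cd14 were also higher in M12 than in parental, while Itgax and Lyz2 were not called. The part of these markers was not tested.

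Cd80 and Cd276 are relatives of PD-L1 in the B7 family. The few reads of Cd80 (chromosome 16, 38455561 to 38496335, plus strand) numbered 13 in M12, 9 in the vehicle group and 6 in each of M11 and the parental line, and 3 to 5 in the remaining groups. No fold change was read from them.

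Cd276 (ENSMUSG00000035914.11; chromosome 9, 58524298 to 58555437, minus strand) codes for B7-H3. It had 23.5, 25.7 and 25.7 CPM in the ZBTB18 line, all below the 29.3, 30.4 and 31.3 CPM of the empty-vector line, which was the highest group. M11 had 13.98, 17.2 and 17.8 CPM and M12 17.3, 18.8 and 19.6 CPM, against 18.6, 21.7 and 26.4 CPM in parental libraries. M11 lay below parental in all libraries, and M12 overlapped with it. The TGF-β1 group averaged 26.7 ± 2.03 CPM and the vehicle group 25.6 ± 1.20 CPM (SD, n = 3 each).

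Cd276 fell 1.36-fold in M11 against parental (log2 fold change -0.45, SE 0.113, edgeR adjusted p = 0.00302) and rose 1.37-fold in the empty-vector line (0.45, SE 0.110, adjusted p = 0.00165). The M11 call was lost with only the 6 libraries compared, at about the same log2 fold change (-0.46, edgeR adjusted p = 0.0521). It was also lost on the TPM scale (-0.16, limma adjusted p = 0.453 with a pseudocount of 1), where the median of all genes moved by 0.137 and the value relative to it was -0.30. In the ZBTB18 line against the empty vector its log2 fold change was -0.28 (SE 0.109, edgeR adjusted p = 0.0570), and it passed with DESeq2 (0.0402), voom (0.0358), a 1 CPM filter (0.0413) and only the 6 libraries compared (0.00541). In M12 against parental it was -0.26 (SE 0.111, edgeR adjusted p = 0.0569), and it passed without M12 replicate 3 (0.0409) or without parental replicate 1 (0.00751). In the ZBTB18 line against parental it was 0.17 (SE 0.110, edgeR adjusted p = 0.196), and it passed without parental replicate 3 (0.31, adjusted p = 0.0168). Across the 7 group means its log2 CPM ran opposite to that of Cd274 (Pearson r = -0.876, a description over means of the same libraries).

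Cd47 (ENSMUSG00000055447.19; chromosome 16, 49800533 to 49915010, plus strand), the ligand of SIRPα, varied least by group of the 7. Its CPM was 48.2, 48.9 and 54.8 in the TGF-β1 group and 50.1, 51.6 and 60.5 in the vehicle group. These were the lowest groups, and their libraries lay below those of the ZBTB18 line, at 63.4, 68.0 and 75.8 CPM. M12 had 68.6, 83.6 and 110 CPM and parental 62.5, 76.8 and 92.8 CPM, the widest spreads of the set for this gene.

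Cd47 was called in none of the 8 comparisons. The smallest adjusted p values were 0.0573 in the vehicle group against the ZBTB18 line (log2 fold change -0.35, SE 0.144) and 0.0649 in M11 against M12 (-0.35, SE 0.144), both by edgeR. The vehicle comparison passed without vehicle replicate 3 (-0.44, adjusted p = 0.0412), with DESeq2 (0.0476) and with only the 6 libraries compared (0.00453). The M11 comparison passed without M12 replicate 3 (-0.48, adjusted p = 0.0106), on the TPM scale (limma, 0.0351 with a pseudocount of 1) and with the same-numbered pairs of M11 and M12 as a block (-0.33, edgeR adjusted p = 0.0272), M11 being the lower in 3 of 3 pairs. With ZBTB18 against the empty vector the log2 fold change was -0.03 (SE 0.143, edgeR adjusted p = 0.891).

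Cd200 (chromosome 16, 45382135 to 45409053, minus strand) codes for a ligand of CD200R on myeloid cells, and no read of it was counted in any group.

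Pvr and Nectin2 lie in the same stretch of chromosome 7 on the minus strand. Nectin2 (ENSMUSG00000062300.14) spans 19716644 to 19750483 and Pvr (ENSMUSG00000040511.14) 19903578 to 19921160, with 153095 bases between them. Both are nectin-family adhesion molecules that bind TIGIT and CD226. Across the 7 group means their log2 CPM moved together (Pearson r = 0.801, a description over means of the same libraries), but with differences between them set out below.

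Pvr had 188, 189 and 205 CPM in the TGF-β1 group, 143, 158 and 193 CPM in the vehicle group and 45.6, 52.0 and 61.8 CPM in the ZBTB18 line. Empty-vector libraries had 83.6, 88.4 and 89.9 CPM. The ZBTB18 libraries were thus the lowest of all 21, and both receptor groups lay above all empty-vector libraries.

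Pvr fell 1.64-fold in the ZBTB18 line against the empty vector (log2 fold change -0.72, SE 0.149, edgeR adjusted p = 0.00102) and by the same 1.64-fold against parental (adjusted p = 0.00034). It was 3.09-fold higher in the vehicle group than in the ZBTB18 line (1.63, SE 0.151, edgeR adjusted p = 4.9e-08), and both carry ZBTB18 overexpression. With TGF-β1 against vehicle the log2 fold change was 0.24 (SE 0.147, edgeR adjusted p = 0.565). The libraries of the groups overlapped, but TGF-β1 was the higher in each of the 3 same-numbered pairs. With the pairs as a block in these groups alone the value was 0.25 (SE 0.126, edgeR adjusted p = 0.378).

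In the metastatic lines Pvr had 73.6, 78.4 and 79.3 CPM in M11 and 117, 152 and 188 CPM in M12, against 74.6, 82.1 and 106 CPM in parental libraries. It rose 1.74-fold in M12 against parental (log2 fold change 0.80, SE 0.149, edgeR adjusted p = 0.000144), and in M11 the log2 fold change was -0.18 (SE 0.149, adjusted p = 0.355). The difference between M11 and M12 was itself called, 1.97-fold lower in M11 (-0.98, SE 0.149, edgeR adjusted p = 3.37e-05).

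Nectin2 had 42.1, 48.1 and 50.8 CPM in the TGF-β1 group, 43.3, 55.0 and 62.4 CPM in the vehicle group and 24.1, 25.3 and 30.9 CPM in the ZBTB18 line, against 22.5, 25.5 and 28.6 CPM in the empty-vector line. The ZBTB18 and empty-vector libraries overlapped, and the receptor groups lay above both. Its log2 fold change with ZBTB18 against the empty vector was 0.07 (SE 0.133, edgeR adjusted p = 0.735), whereas Pvr fell in the same libraries; the difference between the genes was not tested.

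Nectin2 was 2.00-fold higher in the vehicle group than in the ZBTB18 line (log2 fold change 1.00, SE 0.132, edgeR adjusted p = 4.22e-06). With TGF-β1 against vehicle it was -0.19 (SE 0.130, edgeR adjusted p = 0.637). M11 libraries had 17.9, 18.4 and 21.5 CPM and M12 libraries 48.2, 56.2 and 62.3 CPM, against 36.0, 40.8 and 41.4 CPM in parental libraries, and the 3 groups did not overlap.

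Nectin2 fell 2.05-fold in M11 against parental (log2 fold change -1.03, SE 0.136, edgeR adjusted p = 3.08e-06) and rose 1.41-fold in M12 (0.49, SE 0.132, adjusted p = 0.00351). It was 2.89-fold lower in M11 than in M12 (-1.53, SE 0.136, edgeR adjusted p = 3.08e-08). It also fell in the empty-vector line (-0.63, SE 0.133, adjusted p = 0.000443) and the ZBTB18 line (-0.56, SE 0.132, adjusted p = 0.00107) against parental. These last 2 calls were lost on the TPM scale, with limma adjusted p of 0.152 and 0.325 at a pseudocount of 1, where the median of all genes moved by 0.21 and 0.22 (log2).

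The window before the RefSeq start of Nectin2 is shown because the gene moved between groups in both directions. It covers the 250 bases before that start (chr7:19749574-19749823, mm10, minus strand) and holds no GENCODE vM21 exon. In GENCODE the gene reaches to 19750483, so the window lies inside the gene as annotated there. Capitals mark matches on either strand to letters searched in all such windows.
Nectin2: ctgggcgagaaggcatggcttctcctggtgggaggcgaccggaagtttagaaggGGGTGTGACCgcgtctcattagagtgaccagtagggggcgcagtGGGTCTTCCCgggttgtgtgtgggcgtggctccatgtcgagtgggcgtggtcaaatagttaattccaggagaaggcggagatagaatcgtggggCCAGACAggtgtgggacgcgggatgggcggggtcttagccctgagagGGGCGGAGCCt
The match CCAGACA, 58 to 52 bases before the start, holds the core of the CAGA box that SMAD proteins are known to bind, and 5.01% of 32851 windows of 250 bases hold it. The other capitals match GGG, any 5 bases and CC, letters of NF-kB sites, which 45.8% of windows hold. The ZBTB18 core ACATCTG, in 3.71% of windows, was in none of the windows of the 8 genes matched, and nothing was read from that; Pvr was not among the 8.

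Genes within 250 kb on either side were counted as well. In the vehicle group against the ZBTB18 line, 8 of 24 tested genes around Nectin2 were higher and 3 lower. Around Pvr 4 of 15 were higher and 2 lower. The windows overlap, and Nectin2 and Pvr are each counted in the other's window. Each was called higher here and lower in M11 against M12, so every count in those directions includes a ligand gene. On the whole of chromosome 7, 270 of 1215 tested genes were higher and 199 lower. In M11 against M12, 2 of 24 around Nectin2 were higher and 7 lower, and 0 of 15 around Pvr were higher and 6 lower, beside 219 higher and 160 lower of 1215 on the chromosome.

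Lgals9 (ENSMUSG00000001123.15; chromosome 11, 78962974 to 78984946, minus strand) codes for galectin-9, a sugar-binding protein that binds TIM-3. The window before its RefSeq start is shown because the gene was lower in all 4 lines compared with the parental line. It covers chr11:78984947-78985174 (mm10, minus strand), 228 bases that GENCODE vM21 places in no exon. The last 22 bases before the RefSeq start are exonic there and are left out. The sequence thus ends 23 bases before that start, from which positions are counted.
Lgals9: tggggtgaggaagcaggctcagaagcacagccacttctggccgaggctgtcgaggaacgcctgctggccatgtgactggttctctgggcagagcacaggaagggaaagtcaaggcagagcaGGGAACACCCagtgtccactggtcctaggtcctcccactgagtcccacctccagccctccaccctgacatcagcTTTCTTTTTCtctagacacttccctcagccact
The capitals TTTCTTTTTC, 55 to 46 bases before the start, read GAAAAAGAAA on the opposite strand and match GAAA, any 2 bases and GAAA, the letters of an interferon-stimulated response element, held by 2.98% of windows of 250 bases. The capitals GGGAACACCC match the NF-kB letters.

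Lgals9 had 57.4, 58.1 and 62.0 CPM in the TGF-β1 group and 55.0, 58.7 and 71.0 CPM in the vehicle group, which overlapped. The ZBTB18 line had 31.0, 33.0 and 35.8 CPM, against 63.7, 66.8 and 70.4 CPM in the empty-vector line, and all its libraries lay below the empty-vector and vehicle ones. M11 had 43.4, 46.7 and 49.4 CPM and M12 29.4, 46.4 and 49.2 CPM, against 93.7, 121 and 137 CPM in parental libraries. M11 and M12 overlapped with each other, and the parental libraries were the highest of all 21.

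Lgals9 fell 2.01-fold in the ZBTB18 line against the empty vector (log2 fold change -1.01, SE 0.15, edgeR adjusted p = 3.26e-05). It was 1.85-fold higher in the vehicle group than in the ZBTB18 line (0.89, SE 0.15, edgeR adjusted p = 9.01e-05), and with TGF-β1 against vehicle its log2 fold change was -0.06 (SE 0.148, adjusted p = 0.954). Against parental it fell 3.53-fold in the ZBTB18 line (edgeR adjusted p = 5.2e-09), 1.75-fold in the empty-vector line (0.000129), 2.53-fold in M11 (5.44e-07) and 2.82-fold in M12 (7.75e-08). Between M11 and M12 the log2 fold change was 0.16 (SE 0.151, edgeR adjusted p = 0.451).

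Nt5e (ENSMUSG00000032420.8; chromosome 9, 88327197 to 88372092, plus strand) codes for CD73. It had 294, 300.0 and 333 CPM in the TGF-β1 group, against 175, 186 and 190 CPM in the vehicle group. The ZBTB18 line had 201, 218 and 226 CPM, against 119, 150 and 150 CPM in the empty-vector line. The TGF-β1 libraries were the highest of all 21, and each of the ZBTB18 libraries lay above each vehicle and empty-vector one.

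Nt5e rose 1.68-fold with TGF-β1 (log2 fold change 0.75, SE 0.137, edgeR adjusted p = 0.00524), the 1 call among the 7 tested genes in this comparison. The call held when any 1 of the 6 libraries was left out, at adjusted p of up to 0.0486, while the number of genes called in all, 295, dropped to between 71 (without vehicle replicate 2) and 183 (without vehicle replicate 3). Without TGF-β1 replicate 1, 2 or 3 it was 110, 126 and 120, and without vehicle replicate 1 it was 101. With the same-numbered pairs as a block in these groups alone it was 542, and Nt5e, higher in 3 of 3 pairs, was still called (0.75, SE 0.144, edgeR adjusted p = 0.00812). Cd276 and Pvr were also higher in 3 of 3 pairs and Cd274, Cd47 and Nectin2 lower in 3 of 3. None of these 5 passed with the block (edgeR adjusted p = 0.378 to 0.887). How many of all tested genes moved in the same direction in 3 of 3 pairs was not counted, so nothing is read from these pair counts. Nt5e rose 1.54-fold in the ZBTB18 line against the empty vector (0.62, SE 0.137, edgeR adjusted p = 0.00146). In the vehicle group against the ZBTB18 line its log2 fold change was -0.23 (SE 0.136, edgeR adjusted p = 0.193), although their libraries did not overlap, and it passed with only the 6 libraries compared (0.00761).

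In the metastatic lines Nt5e had 138, 156 and 186 CPM in M11 and 109, 112 and 117 CPM in M12, against 50.6, 67.9 and 86.1 CPM in parental libraries, which were the lowest of all 21. Against parental, Nt5e rose 3.15-fold in the ZBTB18 line (log2 fold change 1.66, edgeR adjusted p = 4.43e-09), 2.05-fold in the empty-vector line (1.03, 3.81e-06), 2.35-fold in M11 (1.23, 4.4e-07) and 1.65-fold in M12 (0.72, 0.000172). It was 1.42-fold higher in M11 than in M12 (0.51, SE 0.137, edgeR adjusted p = 0.00622), a call lost without M11 replicate 2 (0.38, adjusted p = 0.0504).

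**Figure D4:**
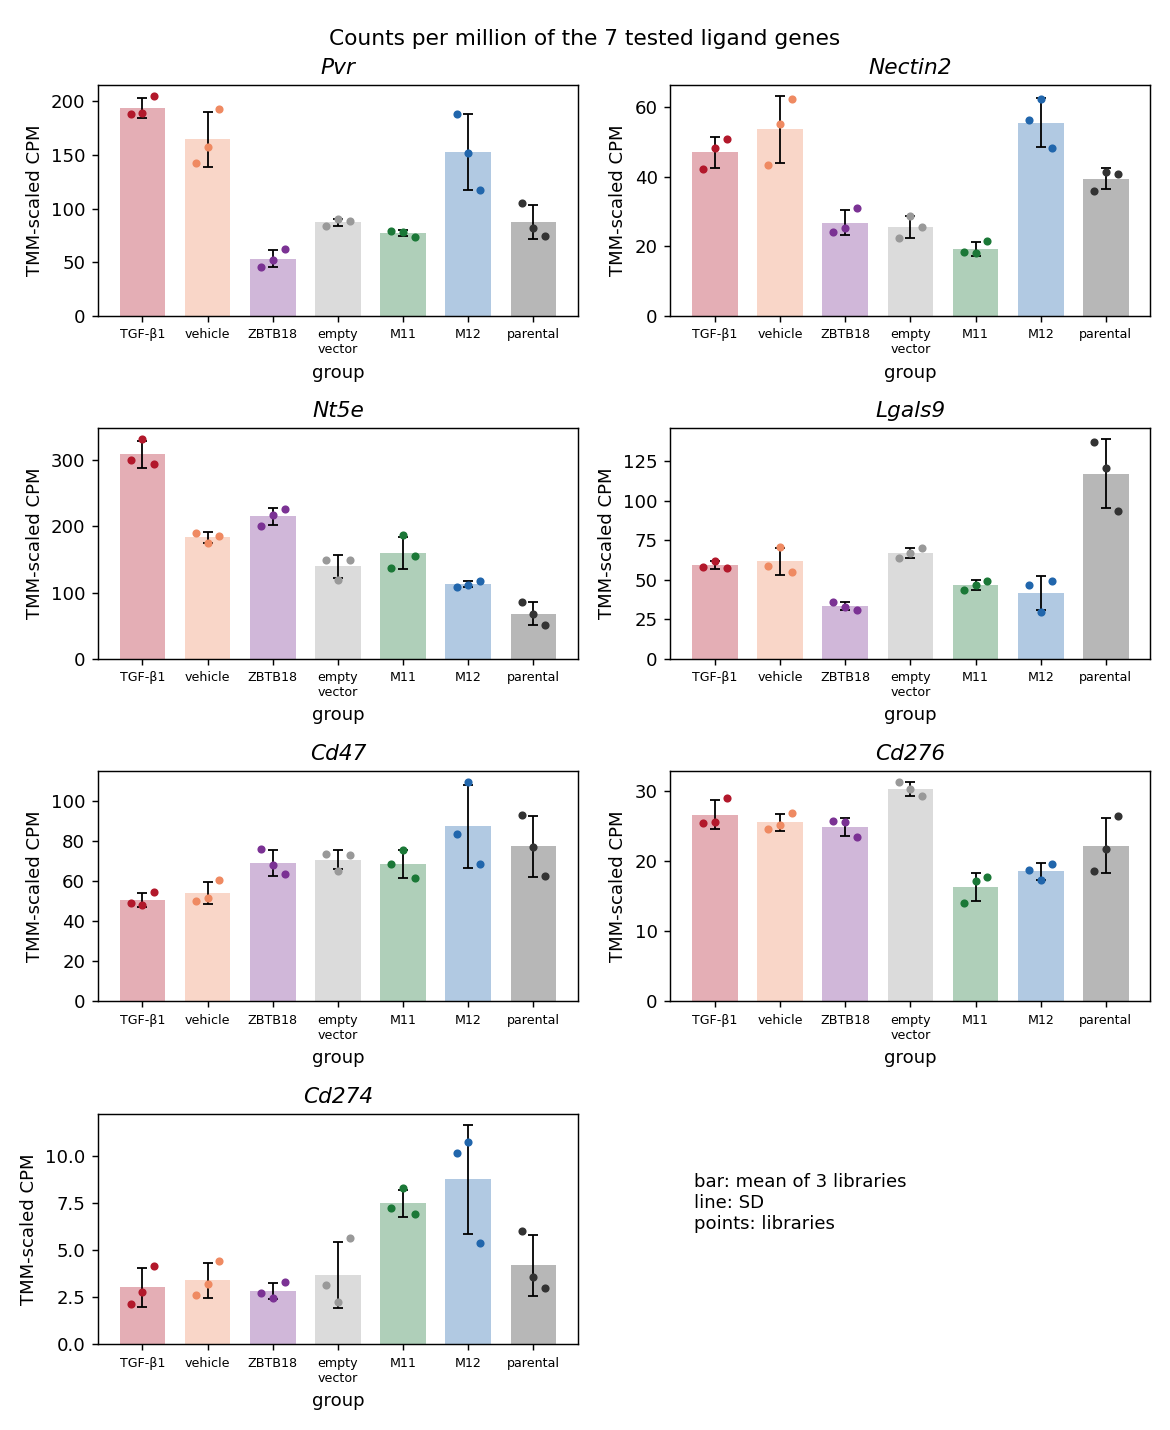
TMM-scaled CPM of the 7 tested genes by group; bars are means of 3 libraries, lines SD and points libraries, each panel with its own axis from 0. Pvr averages 164.5 CPM in the vehicle group and 53.14 CPM in the ZBTB18 line, Nt5e reaches 308.9 CPM with TGF-β1, and Lgals9 is highest in the parental line at 117.3 CPM.

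Lists of 72 related genes were read beside the 9, and 37 of the 72 had enough reads for a test. With TGF-β1 against vehicle 0 of the 37 were called, beside 1.91% of all tested genes. With ZBTB18 against the empty vector 4 of 37 were higher and 7 lower (29.7% called, beside 28.4% of all genes). In M11 against parental 6 were higher and 3 lower (24.3%, beside 40.7%), and in M12 14 were higher and 9 lower (62.2%, beside 50.1%). In the empty-vector line 16 were higher and 4 lower (54.1%, beside 58%), and in the ZBTB18 line 13 were higher and 8 lower (56.8%, beside 61.7%), both against parental. In the vehicle group against the ZBTB18 line 13 were higher and 7 lower (54.1%, beside 38.8%), and in M11 against M12 5 were higher and 7 lower (32.4%, beside 35.5%). Leaving out 1 library gave totals of 7 to 10 in place of 11 for ZBTB18 against the empty vector, 8 to 12 in place of 9 for M11 and 20 to 22 in place of 23 for M12. For vehicle against ZBTB18 it gave 15 to 19 in place of 20, and for M11 against M12 10 to 13 in place of 12. Against parental it gave 16 to 19 in place of 20 for the empty-vector line and 16 to 22 in place of 21 for the ZBTB18 line. The total of 7 came without ZBTB18 replicate 2, ZBTB18 replicate 3, empty-vector replicate 1 or empty-vector replicate 3.

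Of 21 other inhibitory and costimulatory ligands, 10 were tested: 0 were higher and 2 lower with ZBTB18 against the empty vector (median log2 fold change -0.10, beside 0.01 over all genes), 1 higher and 0 lower in M11, and 3 higher and 1 lower in M12, both against parental. Beside this list and those below, 14% of all tested genes were higher and 14.5% lower with ZBTB18 against the empty vector. In M11 20.8% were higher and 20% lower, and in M12 24.9% and 25.2%, both against parental. The list counts were not tested against these shares. Icosl, the ligand of ICOS on T cells, fell 2.54-fold with ZBTB18 against the empty vector (6.41 and 16.3 CPM, edgeR adjusted p = 1.81e-05) and 2.19-fold against parental (adjusted p = 3.84e-05). Vsir, which codes for the inhibitory ligand VISTA, averaged 50.6 CPM in M11 and 16.1 CPM in M12, against 43.7 CPM in parental. It fell 2.71-fold in M12 against parental (edgeR adjusted p = 4.56e-07), was 3.14-fold higher in M11 than in M12 (2.31e-07) and 2.03-fold higher in the vehicle group than in the ZBTB18 line (3.99e-05). Nectin1 rose 2.15-fold in the ZBTB18 line against parental (52.3 and 24.4 CPM, edgeR adjusted p = 1.09e-08), but it already averaged 45.7 CPM in the empty-vector line. Tnfrsf14, the receptor HVEM, was 2.37-fold higher in the vehicle group than in the ZBTB18 line (1.09 and 0.450 CPM, edgeR adjusted p = 0.00561).

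Of 11 receptors of the 9 ligands, 3 were tested, and 1 was higher with ZBTB18 against the empty vector, 1 in M11 and 2 in M12. Tigit averaged 19.5 CPM in M11 and 20.8 CPM in M12, against 9.27 CPM in parental, and rose 2.10-fold (edgeR adjusted p = 1.44e-05) and 2.24-fold (3.24e-06). Havcr2, which codes for TIM-3, rose 9.63-fold in M12 against parental (1.91 and 0.201 CPM, edgeR adjusted p = 1.62e-05) and was 4.28-fold lower in M11 than in M12 (adjusted p = 0.00113). Myeloid Cd68 was higher in M12 as well, 36.87 ± 28.3 CPM against 4.85 ± 2.37 CPM in parental (SD, n = 3 each). Cd14 was also higher, while the markers Itgax and Lyz2 were not called. The part of these markers was not tested.

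Of 11 genes that handle extracellular ATP and adenosine beside Nt5e, 5 were tested, with 1 higher and 1 lower with ZBTB18 against the empty vector and 0 higher and 3 lower in each of M11 and M12 against parental. Of all tested genes, 20% were lower in M11 and 25.2% in M12. Entpd2, which breaks down extracellular ATP, averaged 30.6 CPM in the ZBTB18 line, 35.6 in the empty-vector line, 32.0 in M11 and 40.3 in M12, against 110 CPM in parental. It fell 3.59-, 3.08-, 3.44- and 2.72-fold in these 4 lines (edgeR adjusted p = 5.85e-05, 0.000238, 0.000164 and 0.00066), where Nt5e rose. Entpd1 (CD39), of the same family, had too few reads for a test, with 0.128 CPM in M12, its highest group. Slc29a1, an adenosine transporter, fell 2.11-fold in M11 (edgeR adjusted p = 1.74e-09) and 2.22-fold in M12 (3.82e-10).

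Ada, which turns adenosine into inosine, averaged 15.7 CPM in M11 and 6.83 CPM in M12, against 20.3 CPM in parental. It fell 2.96-fold in M12 (edgeR adjusted p = 3.55e-10) and was 2.30-fold higher in M11 than in M12 (6.37e-08). Adora2b, an adenosine receptor, fell 2.79-fold with ZBTB18 against the empty vector (3.03 and 8.48 CPM, edgeR adjusted p = 0.000115) and 3.39-fold against parental (4.7e-06). Alpl, a phosphatase, was 3.03-fold higher in the vehicle group than in the ZBTB18 line (5.37 and 1.77 CPM, edgeR adjusted p = 9.02e-06).

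All 8 genes of the interferon-gamma route to Cd274 were tested. With ZBTB18 against the empty vector 2 were higher and 1 lower (median log2 fold change -0.07), in M11 2 higher and 0 lower, and in M12 3 higher and 3 lower, both against parental. Irf1, a transcription factor that drives Cd274, averaged 55.2 CPM in the vehicle group and 16.4 CPM in the ZBTB18 line, against 35.1 CPM in parental. It was 3.35-fold higher in the vehicle group than in the ZBTB18 line (edgeR adjusted p = 0.00161). It fell 2.13-fold in the ZBTB18 line against parental (adjusted p = 0.0179), a call lost without ZBTB18 replicate 1 (0.0686), without parental replicate 1 (0.0987) and on the TPM scale (limma adjusted p = 0.0849 with a pseudocount of 1).

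Of 7 genes whose products mature, bind, cleave or act against PD-L1 or CD47, 6 were tested. They gave 0 higher and 1 lower for ZBTB18 against the empty vector, 1 and 0 in M11 and 3 and 1 in M12 against parental. Their roles differ in direction, so the counts give no direction for either ligand. Of 8 NKG2D ligands, 5 were in the table and 3 were tested: 0 higher and 2 lower for ZBTB18 against the empty vector, 1 and 0 in M11, and 3 and 0 in M12. Ulbp1, an NKG2D ligand, rose 2.54-fold in M12 against parental (137 and 54.1 CPM, edgeR adjusted p = 3e-09). Parental was its lowest group, with 104.5 CPM in M11 and 90.7 to 115 CPM in the remaining groups. The other 2 tested were Raet1d and Raet1e, near-identical copies that can share reads, so the counts over this list are uncertain: both lower calls with ZBTB18 and 2 of the 3 higher calls in M12 were theirs. Of 6 tryptophan and arginine enzymes, 2 were tested: 0 were called with ZBTB18 against the empty vector or in M11, and 1 was lower in M12. Nos2 rose in the empty-vector line against parental (1.71 and 0.0417 CPM, edgeR adjusted p = 0.0239), a call lost without parental replicate 1 (0.0655), 2 (0.0653) or 3 (0.0698).

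These small counts moved with single libraries. For ZBTB18 against the empty vector, the receptor call was lost without ZBTB18 replicates 2 or 3 or empty-vector replicates 1 or 3. The 2 adenosine calls became 1 without ZBTB18 replicates 2 or 3 or empty-vector replicates 2 or 3, and the 3 interferon calls became 1 without ZBTB18 replicate 2 or any empty-vector library. The 2 NKG2D calls became 1 without ZBTB18 replicate 3 or empty-vector replicate 1. In M11, 1 call became 2 for other ligands and for NKG2D ligands without M11 replicate 2 or parental replicate 3. It also became 2 for the genes acting on PD-L1 or CD47 without M11 replicate 3, and the 2 interferon calls became 1 without M11 replicate 2. In M12, the 3 NKG2D calls became 1 without M12 replicate 2 or parental replicate 3, and the 4 calls among other ligands became 2 without parental replicate 1.

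The genes most like each ligand in pattern were ranked by the Pearson correlation of mean log2 CPM over the 7 groups, among genes that ranged at least 2-fold. Genes with provisional symbols (Gm, Rik, AC, AL, BC or CT names) were left out. They were Plet1os, Fibcd1 and Catip for Cd274 (r = 0.989 to 0.991), Gucy2c, Rhbdf2 and Slc35g2 for Pvr (0.973 to 0.989), and Cd37, Sema4f and Lta for Nectin2 (0.958 to 0.997). For Nt5e they were Ssh2, Ncoa2 and Tulp4 (0.959 to 0.977), and for Lgals9 Trim6, Gbp6 and Egfl7 (0.950 to 0.975). For Cd276 they were Rbm19, Tcof1 and Eef2k (0.944 to 0.973), and for Cd47 Mpv17, Prox2os and Rfc2 (0.979 to 0.989). With 7 points taken from the same libraries, and the highest of many genes picked, these values are a description.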

How the data were processed

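PolyA RNA was sequenced with a stranded mRNA kit, per the labels' protocols. Per the submitters' processing notes, the tools included STAR 2.7.1a and RSEM, beside Trim Galore and GATK 4.1.2.0, with build mm10; the annotation release is not given in the sources used here. The deposited expected counts from RSEM were rounded to whole numbers (3.65% of nonzero values were not whole). The deposited TPM values, which RSEM scales per gene length and per library, served for levels between genes. FPKM values were deposited too and left aside. Library totals ran from 24208569 to 90518872 counts.

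Groups and replicate numbers came from the sample titles, and 0 columns stayed unmapped. In R 4.3.3, edgeR 4.0.16 fitted 7 group means to the 21 libraries together, leaving 14 residual degrees of freedom, by its quasi-likelihood test, with TMM scaling and edgeR's filter on low counts by group. Adjusted p is Benjamini-Hochberg over 15432 genes, and SE is the log2 fold change over the square root of F. A comparison uses groups of 3, and 8 comparisons were made. CPM was computed on TMM-scaled library sizes. Alternatives used DESeq2 1.42.0, limma 3.58.1 (voom, and log2 of TPM plus 1 or 0.1), other filters, only the 6 libraries compared, a replicate block, the table without Gm42418, and each library left out.

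The members and gene lists were chosen with earlier results of these data known. Named beside the 9 genes were list genes past the threshold with at least 2-fold change, at least 1 CPM in the higher group and no overlap of libraries, and the 3 genes most like each tested member. A gene that met this rule is not reported here. Same-numbered libraries deviated together in the TGF-β1 and vehicle groups (r = 0.124 to 0.273 in 3 pairs) and in M11 and M12 (0.12 to 0.233 in 3 pairs). In the other comparisons 0 to 2 of 3 pairs were over 0.1 (r up to 0.181), so the numbers were taken to pair libraries in those first 2 comparisons alone, for which a block within the groups compared was added after seeing the data. Replicates of a group differed beyond sampling noise in every pair. The method was tested on simulated counts. Coordinates are 1-based from GENCODE vM21, which held 99.14% of the identifiers, and promoter windows are from RefSeq (GRCm38, mm10), matched by symbol for 8 of 9 genes.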

Additional observations from a re-analysis of the deposited data

Results flagged for a closer look

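The effects of M11 and M12 against the parental line differed by test for 3 of the 7 tested genes, where 35.5% of all tested genes were called in the same contrast of M11 with M12 in edgeR. For Nectin2 the difference was -1.53 (log2), with a fall in M11 and a rise in M12. For Pvr it was -0.98, with log2 fold changes of -0.18 in M11 and 0.80 in M12. For Nt5e it was 0.51, with a rise in both lines, and this difference did not pass without M11 replicate 2. Of the immune markers, Cd68 and Cd14 were lower in M11 than in M12 and Itgax was higher (0.381 and 0.140 CPM). Of the fibroblast markers, Col3a1 and Pdgfrb were higher in M11, while Dcn and Lum were near 0 in both. The part of these markers in the differences was not tested.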

How the results depend on the processing

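Over 86 fold changes of the 7 tested ligand genes and the other named genes, 1394 values were recomputed under the alternatives: 1297 kept direction and side of the threshold, 26 fell short of it, 34 came to pass it and 37 changed sign. None of the 37 was past the threshold in the values reported. Of the 37, 14 were on the TPM scales, and 11 of these had the reported sign relative to the shift of all genes there; the causes of the rest were not tested.

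Counts of all genes called moved by over 1.5 times in TGF-β1 against vehicle, which gave 295 as reported, 574 with DESeq2, 633 without a filter, 1343 with only the 6 libraries compared, 542 with the replicate block in the paired groups alone (an alternative chosen after seeing the data), 112 and 81 on TPM plus 1 and plus 0.1, and 71 to 183 without 1 library. With only the 6 libraries compared, the count was 4175 in place of 6288 in M11 against parental and 3525 in place of 5474 in M11 against M12. Of the ligands, those higher in M11 against parental numbered 2 in place of 1 (Cd274 added) under DESeq2, its size factors, voom, no filter, a 1 CPM filter, the 6 libraries, both TPM scales and without Gm42418, and 1 to 2 without 1 library. Those lower in M12 against parental were 2 in place of 1 (Cd276 added) with a 1 CPM filter and with the replicate block, and 1 to 2 without 1 library. Those lower in the empty-vector line against parental were 1 in place of 2 on both TPM scales. Those lower in vehicle against ZBTB18 were 1 in place of 0 with DESeq2, without a filter and without Gm42418, 2 with the 6 libraries, and 0 to 1 without 1 library. Those higher with ZBTB18 against parental were 2 in place of 1 on both TPM scales and 1 to 2 without 1 library (parental replicate 3). Those higher in M11 against M12 were 0 to 1 without 1 library.

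Signs turned on TPM plus 1 and plus 0.1 for Cd47 with TGF-β1 (0.017 and 0.017), Pvr in M11 (0.068 and 0.070), Cd276 in M12 (0.027 and 0.035), Cd47 with ZBTB18 against parental (0.0014 and 0.0015), and, in the empty-vector line against parental, Pvr (0.23 and 0.24), Cd274 (0.079 and 0.10) and Cd47 (0.053 and 0.053). Pvr in that line, -0.0023 as reported, also turned under DESeq2 (0.0063), its size factors (0.0062), voom (0.013), the replicate block (0.00022) and without Gm42418 (0.020). On the TPM scales the median of all genes moved by 0.137 to 0.306 against parental, and relative to it Nectin2 was -0.49 in the empty-vector line and -0.42 with ZBTB18 on TPM plus 1. On the same scale Pvr was -0.07 in M11, Cd276 -0.14 in M12, Cd47 -0.22 with ZBTB18, and Cd274 -0.13 and Cd47 -0.16 in the empty-vector line, all with the reported sign, while Pvr in that line (0.02) and Cd47 with TGF-β1 (0.02) stayed turned. Without 1 library, signs turned for Cd47 (-0.106 to 0.024), Nectin2 (-0.044 to 0.16) and Cd274 (-0.62 to 0.038) with ZBTB18 against the empty vector, for Cd274 (-0.47 to 0.060), Cd276 (-0.0024 to 0.099) and Lgals9 (-0.13 to 0.056) with TGF-β1, for Cd276 in vehicle against ZBTB18 (-0.0065 to 0.061), for Cd47 in M12 (-0.025 to 0.32) and with ZBTB18 (-0.29 to 0.0063) against parental, for Lgals9 in M11 against M12 (-0.042 to 0.31), and for Pvr (-0.10 to 0.17), Cd274 (-0.60 to 0.18) and Cd47 (-0.26 to 0.040) in the empty-vector line against parental. The replicate block changed, among the ligands, the calls of Cd276 named above (adjusted p = 0.0382 with ZBTB18 against the empty vector, 0.0445 in M12) and no other. In the paired groups alone the block changed the call of Cd47 in M11 against M12 (-0.33, adjusted p = 0.0272). Depth limits Cd80, with 46 reads in all.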
